A study of Triticum aestivum with 8 samples.

Results

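To follow open chromatin through early grain development, the accessible chromatin regions (ACRs) listed for wheat endosperm at 5 days (DAP5) and at 9 days (DAP9) were compared. The study counts both days to the phase before grain filling. The 2 lists were merged wherever ACRs overlapped by at least 1 bp. Each merged locus was then sorted into lost (an ACR at DAP5 alone), gained (an ACR at DAP9 alone) or kept (an ACR in both). The lists held 108846 and 101620 ACRs, 210466 of the 420451 ACRs in the series, and gave 130234 loci. Both samples came from the bread wheat cultivar AiKang58 (AK58), grown in a greenhouse after vernalization in a cold chamber. No other treatment was named. For both, the embryo was cut out of the seed, and the removal of other seed parts was not mentioned. Each stage had 2 sample records but 1 list of coordinates, so that no difference between DAP5 and DAP9 could be set against replicate error. No read number, score or gene came with an ACR. A lost locus is therefore one without a listed ACR at DAP9, not one shown to be closed.

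ATAC-seq uses the Tn5 transposase, which inserts into DNA that nucleosomes do not cover, and clusters of insertions mark promoters, enhancers and other regulatory DNA. In cereals, the endosperm first divides and forms its cell walls, and later fills with starch and storage protein. Bread wheat carries the A, B and D subgenomes, each from a different ancestor. In its long chromosomes, genes are densest towards the ends and sparse around the centromeres, where repeats prevail.

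Most loci were kept, and more were lost than gained. Kept loci numbered 75118 (57.7% of all loci), lost loci 30549 (23.5%) and gained loci 24567 (18.9%). Of the loci with an ACR at DAP5, 28.9% were lost by DAP9 (Wilson 95% interval 28.6 to 29.2%). Of those with an ACR at DAP9, 24.6% were gained (24.4 to 24.9%). All intervals given here describe counting error and treat each locus as independent, which neighbours are not. Kept loci outnumbered lost and gained loci together on 21 of 21 chromosomes, and lost loci outnumbered gained loci on 20. Under a reciprocal overlap of 50%, the kept share was 43.4%. The number lost minus the number gained equals the number of DAP5 loci minus that of DAP9 loci, so that their order follows from how many ACRs each list held. Among ACRs at the width steps described below, which leave out far more of the DAP5 list, 26124 loci were lost and 37618 gained, and lost loci outnumbered gained loci on 1 of 21 chromosomes.

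Lost and gained loci were narrow and kept loci were wide. The median width was 350 bp for lost loci, 350 bp for gained loci and 831 bp for kept loci, and the means were 498, 485 and 1058 bp. A width of exactly 350 bp was found in 44.5% of lost loci and 52.5% of gained loci. A kept locus spans the ACRs of both lists and is by construction at least as wide as the wider of them, so that single ACRs give the fairer comparison. In both lists, the share of ACRs with no partner in the other list dropped with every step in width. Of the 350 bp ACRs, 49.2% at DAP5 and 48.5% at DAP9 had no partner. For ACRs of 801 to 1250 bp, the shares were 9.76% at DAP5 and 6.48% at DAP9.

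**Figure D1:**
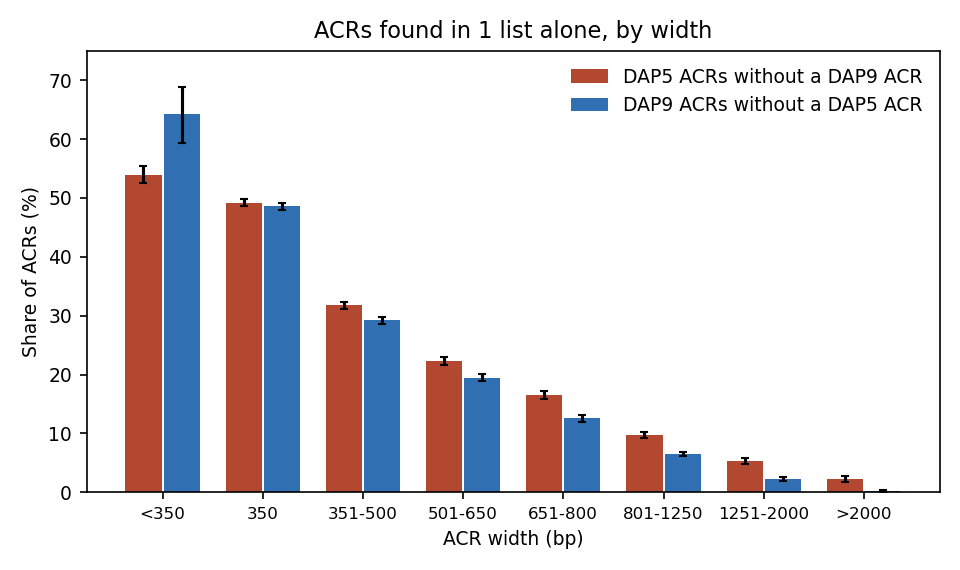
Share of ACRs (%) that overlapped no ACR of the other endosperm list, by ACR width in bp, with Wilson 95% intervals as bars. From 350 bp upwards the DAP5 bar is the higher one of each pair, and both drop from about 49% at 350 bp (49.2% at DAP5 and 48.5% at DAP9) to 2.24% and 0.192% above 2000 bp.

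In proportion, the lists differed most among the widest ACRs. Above 2000 bp, 87 of 3887 DAP5 ACRs lacked a partner at DAP9 (2.24%, 1.82 to 2.75%), against 7 of 3655 DAP9 ACRs without one at DAP5 (0.192%, 0.0928 to 0.395%). The widest lost locus covered 7400 bp on 1B (672954232 to 672961631). The widest gained locus covered 2600 bp on 4A (36369123 to 36371722). Both had an ACR in each of the lists for DAP15 and DAP20, so that the 1B locus was absent from the DAP9 list only. Coordinates are as deposited, on an unstated genome build, and no annotated genes were assigned to them. Of the 121 lost loci of at least 2000 bp, 60 had an ACR in both later lists and 37 in neither. Of the 13 gained loci of that size, 9 had an ACR in both later lists and 1 in neither.

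The lists differed in their width steps, which bears on each comparison by width. Most ACRs were 350 bp wide plus a multiple of 150 bp, and 18.2% of DAP5 ACRs but 1.92% of DAP9 ACRs were off these steps. Widths below 350 bp were found in 4.56% of ACRs at DAP5 and 0.388% at DAP9. Pooled over all widths, off-step ACRs were spread over lost and kept loci in nearly the same share. They made up 17.3% of DAP5 ACRs without a DAP9 partner (16.8 to 17.7%) and 18.5% of those with one (18.2 to 18.8%). These shares pool unlike widths. Of the 4960 DAP5 ACRs under 350 bp, all off the steps, 2677 had no DAP9 partner (54.0%, 52.6 to 55.4%). For all off-step DAP5 ACRs this share was 26.7%, and for on-step ones 28.4%. Off-step ACRs above 350 bp were not counted separately, but their share must lie below the 26.7% of all off-step ACRs. The nearly equal pooled shares thus hide a higher share under 350 bp and a lower one above. The part of off-step widths in the differences below was not tested further than by leaving them out.

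Lost and gained loci differed in their place along the chromosome. Lost loci lay at the chromosome ends more often than gained loci. The outer 20% at either end held 65.5% of lost loci (65.0 to 66.0%), 58.4% of gained loci (57.8 to 59.0%) and 60.2% of kept loci (59.8 to 60.5%). Lost loci were more terminal than gained loci on 21 of 21 chromosomes and more terminal than kept loci on 20, whereas gained loci were less terminal than kept loci on only 13. The outermost 2% at either end held 15.5% of lost, 7.24% of gained and 9.93% of kept loci.

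Between the ends, the 2 shares mirrored each other. In the last 5% of the chromosome length, 36.9% of DAP5 loci were lost (36.2 to 37.7%) and 18.3% of DAP9 loci were gained (17.7 to 19.0%), with 2.61 lost loci for each gained one and more lost than gained on 21 of 21 chromosomes. The first 5% was less uniform, with 34.4% lost (33.5 to 35.3%), 25.3% gained (24.4 to 26.2%) and more lost than gained on 15 of 21 chromosomes. From 10 to 15% of the length the order was the opposite, at 23.7% lost (22.35 to 25.04%) and 30.2% gained (28.8 to 31.6%), and gained loci were the more numerous on 17 of 21 chromosomes. A further zone of loss lay before the chromosome middle. From 40 to 45% of the length, 32.0% were lost (30.5 to 33.5%) and 18.1% gained (16.7 to 19.5%), with more lost than gained on 17 of 21 chromosomes. Centromere positions were not used here, so that this zone was not set against them. From 60 to 65% of the length, gained loci led again, with 22.7% lost and 27.1% gained and 17 of 21 chromosomes in that direction.

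**Figure D2:**
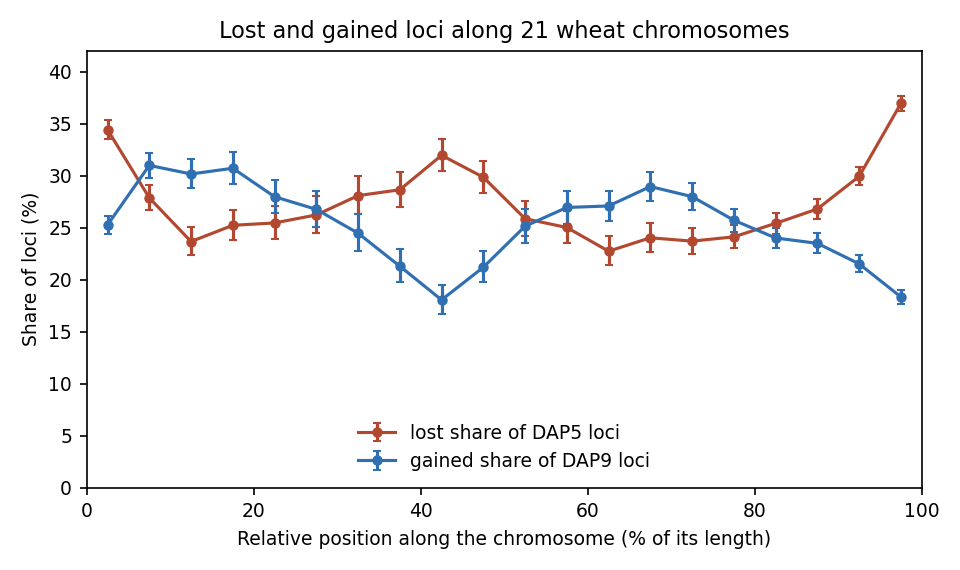
Lost share of DAP5 loci (red) and gained share of DAP9 loci (blue) in %, pooled over 21 chromosomes in 20 bins of relative position along the chromosome, with Wilson 95% intervals as bars. The lost share is highest in the last bin (36.9%) and has a second rise at 40 to 45% of the length (32.0%), where the gained share is lowest (18.1%).

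The terminal loss was seen at each width. Of the 350 bp ACRs at DAP5, 58.6% in the outer 5% of the chromosome had no DAP9 partner, against 46.2% further in. For DAP5 ACRs of 801 to 1250 bp, these shares were 14.7% and 8.11%. The outer share was the higher one in 8 of 8 width classes of the DAP5 list. In the DAP9 list it was the lower one in 6 of 8 classes, for example with 43.2% against 49.9% at 350 bp, and the exceptions were the widths above 1250 bp.

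Lost loci lay closer to each other than gained loci did. The nearest other lost locus lay at a median of 28174 bp, the nearest other gained locus at 86445 bp and the nearest other kept locus at 6480 bp, with the numbers of loci differing as given above. The contrast was larger in proportion at the chromosome ends, with medians of 18445 bp for lost and 59999 bp for gained loci. Away from the ends, they were 107788 and 158350 bp. The numbers of loci also differed more at the ends (20010 lost, 14345 gained) than away from them (10539 and 10222). More loci in a zone lie closer together in any order, so these medians do not show clustering. Few lost or gained loci lay directly beside an ACR of the other list. The median distance to the nearest ACR of the other list was 5147 bp for lost loci and 7116 bp for gained loci. This distance was at most 500 bp for 10.8% of lost loci and 9.31% of gained loci, and above 100 kb for 11.7% and 16.2%. Within 10 kb lay 61.7% of lost and 55.9% of gained loci. Measured to kept loci only, 55.4% of lost and 48.2% of gained loci had a kept locus within 10 kb. Of kept loci, 57.0% had another kept locus within 10 kb. The median distance to the nearest kept locus was 7123 bp for lost and 11349 bp for gained loci, so that gained loci lay farther from kept loci than lost loci did. Read along the chromosome, 50.5% of lost loci and 57.6% of gained loci had a locus of another class on either side. Runs of 3 or more consecutive loci of the same class held 23.1% of lost, 15.8% of gained and 63.9% of kept loci. A more frequent class falls into runs more often in any order, and kept loci were by far the most frequent. No random order was drawn, so these shares do not rank the classes by clustering.

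The longest runs of loss lay near the end of 5B. A run of 16 lost loci spanned 81832 bp (691196222 to 691278053), and another run of 16 spanned 91188 bp (691291320 to 691382507). In the first, 3 loci had an ACR at DAP15 and 5 at DAP20, and in the second 2 and 1. The next longest was a run of 14 on 1B over 227346 bp (682104374 to 682331719), with 1 locus present at DAP15 and 0 at DAP20. The longest run of gain held 10 loci over 441999 bp of 4B (20307625 to 20749623), of which 7 had an ACR at DAP15 and 4 at DAP20. The next longest held 9 loci over 1558935 bp of 2D (183600573 to 185159507), with 4 at DAP15 and 3 at DAP20. A run of 8 gained loci on 1D spanned 108250 bp (233175 to 341424), and there 8 loci were present at DAP15 and 7 at DAP20.

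In windows of 5 Mb with at least 20 loci, the median window had lost 26.4% of its DAP5 loci and gained 24.2% of its DAP9 loci. The highest share lost was 66.3% on 2B (15000001 to 20000000), where 59 loci were lost, 7 gained and 30 kept (interval for the lost share 56.0 to 75.3%). The highest share gained was 65.0% on 1B (410000001 to 415000000), from only 13 gained and 7 kept loci (43.3 to 81.9%). That window had also lost 8 loci, 53.3% of those at DAP5. Of 2270 windows, 55 had lost at least 50% and 52 had gained at least 50%. Of the former, 23 lay in the outer 5% at either end of a chromosome, and of the latter 3 did, where 274 of all 2270 windows (12.1%) lay.

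Chromosomes 2D and 6B stood apart from the others in opposite directions. On 2D, 24.1% of DAP5 loci were lost (23.0 to 25.3%) and 30.7% of DAP9 loci were gained (29.5 to 31.8%). On the other 20 chromosomes, the lost share ran from 26.6% (4D) to 34.4% (6B) and the gained share from 20.7% (6B) to 26.8% (4B). 2D was thus the lowest in loss, the highest in gain and the 1 chromosome with more gained (1843) than lost loci (1327). It was not the only one in each setting, since lost loci outnumbered gained loci on 19 of 21 chromosomes with ACRs of at least 300 bp or with merging within 500 bp. On 6B, 1894 loci were lost and 942 gained. Gain exceeded loss on 2D, and loss exceeded gain on 6B, also with a reciprocal overlap of 50%, with 350 bp around each midpoint and with merging within 500 bp. The gained share of 2D was above that of both homoeologues in each section of its length, although loss led in its last 10% (407 lost, 328 gained). The gained share of 2D was 37.6% in the first 5%, 32.2% from 5 to 90% and 23.3% in the last 10% of its length, against 21.4, 25.9 and 20.4% on 2A and 21.4, 25.7 and 19.9% on 2B. The DAP5 list of 2D also differed in its widths. There 33.6% of ACRs were off the width steps, against 15.3 to 18.9% on the other chromosomes, and 9.67% were under 350 bp, against 3.66 to 4.90%. At DAP9, 5.10% of the 2D ACRs were off the steps, against 1.08 to 2.48% elsewhere. With only on-step ACRs, 2D had lost 976 loci and gained 3013, in a setting where gain was at least as frequent as loss on 20 of 21 chromosomes. The part of these widths in the pattern of 2D was not tested further.

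**Figure D3:**
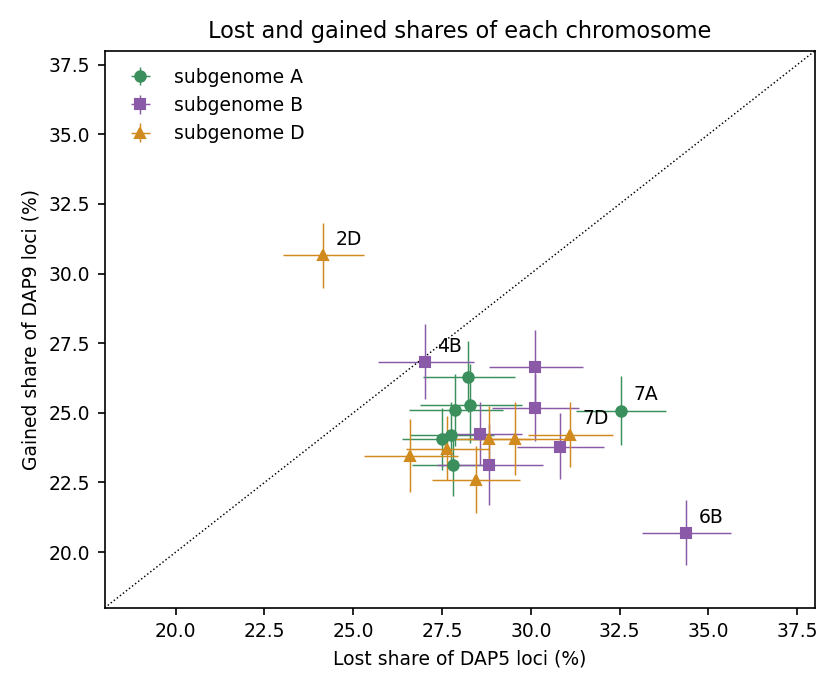
Lost share of DAP5 loci (horizontal axis, %) against gained share of DAP9 loci (vertical axis, %) for the 21 chromosomes, with Wilson 95% intervals as lines, colours for subgenomes and equal shares on the dotted diagonal. 2D is the only point above the diagonal (24.1% lost, 30.7% gained), 4B lies on it within its interval, and 6B lies farthest below (34.4% lost, 20.7% gained).

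Among the subgenomes, the shares lost and gained differed by less than the spread between chromosomes. Over the 7 chromosomes of each subgenome, the mean lost share was 28.6 ± 1.77% (SD) for A, 29.98 ± 2.32% for B and 28.0 ± 2.23% for D. The mean gained share was 24.7 ± 1.03% for A, 24.4 ± 2.14% for B and 24.7 ± 2.69% for D. Chromosomes are not biological replicates, and directions over the 7 homoeologous groups are given as counts without a p-value. The lost share was higher in B than in D in 6 of 7 groups, by 1.94 ± 2.23 points (SD). Leaving out group 2, which holds 2D, the difference was 1.52 ± 2.12 points with 5 of 6 groups. Kept loci made up a smaller share of loci in B than in D in 6 of 7 groups (-1.09 ± 1.25 points), and without group 2 in 6 of 6 (-1.49 ± 0.725 points). Per Mb, D held the most loci of each class, with 6.61 ± 0.473 kept, 2.58 ± 0.333 lost and 2.17 ± 0.313 gained loci, against 5.07 ± 0.512, 2.03 ± 0.216 and 1.66 ± 0.107 in A. The D chromosome had more lost loci per Mb than its A homoeologue in 6 of 7 groups, the exception being group 2, and more gained loci per Mb in 7 of 7.

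The place of gained loci differed between B and the other subgenomes by more than the SD over groups. The share of gained loci at the chromosome ends was 62.1 ± 4.81% for A, 52.7 ± 5.51% for B and 60.04 ± 5.51% for D (SD over 7 chromosomes each). A exceeded B in 7 of 7 groups, by 9.46 ± 5.25 points, and B minus D was below 0 in 7 of 7 groups, at -7.35 ± 4.55 points. For lost and kept loci the differences were within the SD. For kept loci, A exceeded B by 2.22 ± 4.63 points in 5 of 7 groups. For lost loci, A exceeded B by 1.02 ± 3.25 points in 4 of 7 groups.

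Kept loci mostly held their width. A single ACR in each list was present in 70555 kept loci (93.9%), and these were used for the change in width. The mean width was 821 bp at DAP5 and 831 bp at DAP9, and the median was 650 bp at both. The median log2 ratio of DAP9 to DAP5 width was 0 (quartiles -0.30 and 0.38) and the mean was 0.04. The width was equal in 23.8%, larger at DAP9 in 42.2% and smaller in 34.0%, and 62.8% were within 150 bp, 1 step, of their earlier width. At least 1.5 times wider at DAP9 were 9484 loci (13.4%, 13.2 to 13.7%), and at least 1.5 times narrower were 7548 (10.7%, 10.5 to 10.9%). Equal widths did not mean equal coordinates. The same start was found in 0.611% of these loci, the midpoint moved by a median of 72 bp, and 1 ACR lay wholly inside the other in 48.0%.

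**Figure D4:**
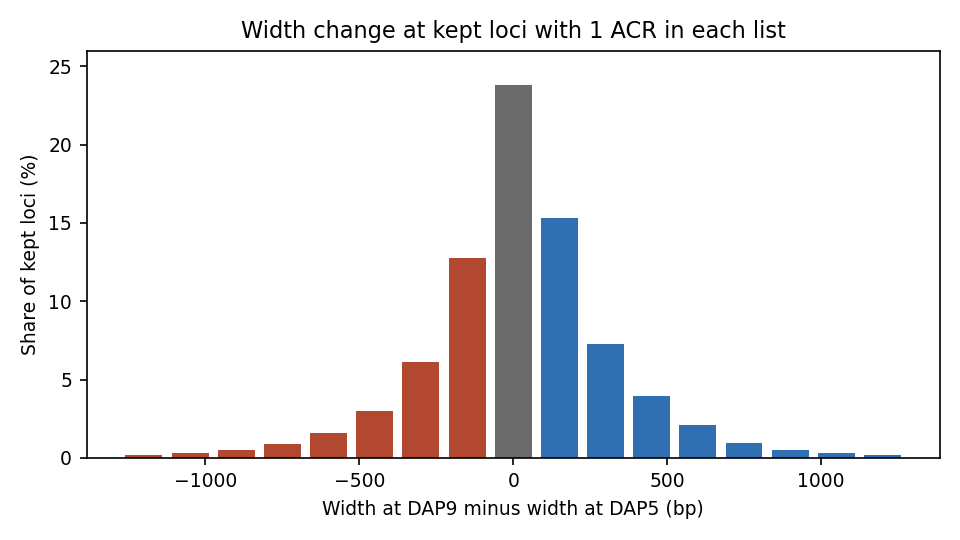
Share (%) of the 70555 kept loci with 1 ACR in each list whose width at DAP9 minus that at DAP5 equalled each multiple of 150 bp from -1200 to 1200 bp (blue wider, red narrower, grey equal). Equal widths made up 23.8%, 1 step wider 15.3% and 1 step narrower 12.8%. Changes off these multiples are not drawn.

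On average, narrow ACRs were wider in the other list and wide ACRs narrower, whichever list they were sorted by. Of loci with a 350 bp ACR at DAP5, 28.8% were at least 1.5 times wider at DAP9. Of loci with a 350 bp ACR at DAP9, 23.5% had been at least 1.5 times wider at DAP5. Since few ACRs were under 350 bp, these loci could hardly differ in the other direction. When sorted by the mean of both widths, the median change was 0 in each width class of at least 350 bp. The largest widening was on 1A (445257203 to 445263102), from 1250 to 5900 bp. The largest narrowing was on 7B (529992015 to 529997014), from 5000 to 500 bp. Both loci had an ACR at DAP15 and at DAP20.

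The width change varied over the same zones as loss and gain. From 10 to 15% of the length, where gained loci led, 15.1% of kept loci widened by at least 1.5 times and 8.28% narrowed (mean log2 ratio 0.12). In the last 5%, where lost loci led, 10.3% widened and 15.1% narrowed (mean -0.06). From 40 to 45%, 10.1% widened and 11.8% narrowed (mean -0.03). The first 5% did not share this order, since more kept loci widened there (14.3%) than narrowed (12.2%). The mean log2 ratio was above 0 on 19 of 21 chromosomes, highest on 2D (0.16) and lowest on 6B (-0.04), the chromosomes that also stood apart in gain and in loss. The subgenome means were 0.05 ± 0.02 for A, 0.03 ± 0.04 for B and 0.05 ± 0.05 for D (SD over 7 chromosomes each), which differed by less than 1 SD of B or D. Paired by group, A was above D in 6 of 7 groups. Without group 2, which holds 2D, it was so in 6 of 6, by 0.0218 ± 0.0230 (SD over groups). A was above B in 5 of 7 groups, and B above D in 4 of 7.

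The lists for whole seed at DAP15 and DAP20 had no part in sorting the loci and were used as a further readout. They come from another tissue, so that stage and tissue cannot be told apart in them. Gained loci were found again more often than lost loci. An ACR at DAP15 was present in 44.9% of gained loci (44.3 to 45.6%), 23.0% of lost loci (22.5 to 23.4%) and 71.5% of kept loci (71.2 to 71.9%). At DAP20, the shares were 39.0% of gained (38.4 to 39.6%), 25.2% of lost (24.7 to 25.7%) and 65.8% of kept loci (65.5 to 66.1%). Gained loci exceeded lost loci in this on 21 of 21 chromosomes for each later list. The DAP15 list stands apart on chromosome 4B, where it held 50.5% of kept loci, against 70.1 to 74.7% on the other chromosomes. Without 4B its shares were 45.5% for gained, 23.2% for lost and 72.4% for kept loci.

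**Figure D5:**
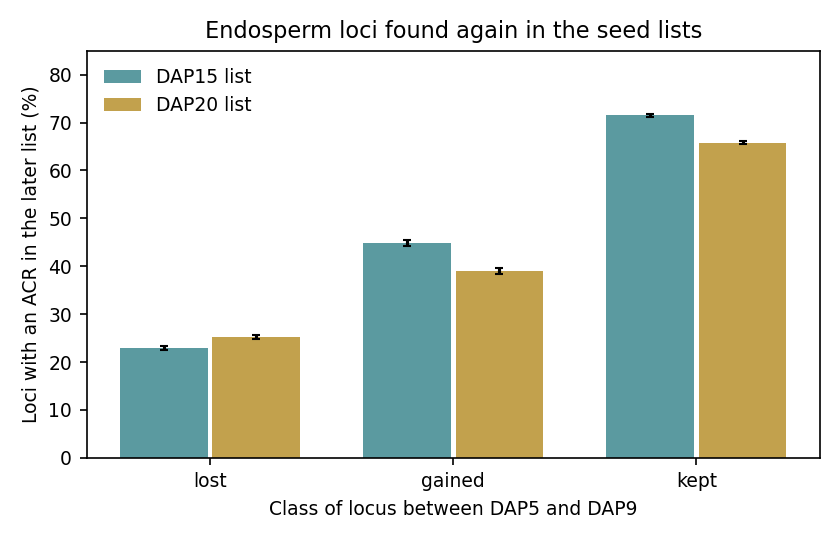
Share (%) of lost, gained and kept loci with an ACR in the seed lists for DAP15 and DAP20, with Wilson 95% intervals as bars. Gained loci (44.9% and 39.0%) lie between lost loci (23.0% and 25.2%) and kept loci (71.5% and 65.8%).

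The difference between gained and lost loci was present at equal width. Among loci of exactly 350 bp, 39.9% of the gained and 21.01% of the lost had an ACR at DAP15, and 36.8% and 22.5% at DAP20. Among loci of 801 to 1250 bp, it was 65.6% and 32.7% at DAP15 and 48.1% and 34.9% at DAP20. In neither later list were 64.2% of lost loci (19606), 42.1% of gained loci (10344) and 20.0% of kept loci (15008). Lost loci with an ACR in both later lists numbered 3770 (12.3%, 12.0 to 12.7%), and these were missing from the DAP9 list alone. Lost loci were found slightly more often at DAP20 than at DAP15, while gained and kept loci were found more often at DAP15. This order of the lost loci was that of the chromosome ends, where 21.7% were present at DAP15 and 26.5% at DAP20. In the inner 60% of the length it was the opposite, at 25.2% and 22.7%. The DAP20 share was also higher at the ends than in the inner 60% for gained loci (41.8% against 35.003%) and kept loci (67.8% against 62.8%). Their DAP15 shares differed less, at 45.3% against 44.5% for gained and 71.5% against 71.6% for kept loci. A higher DAP20 share at the ends was thus not particular to lost loci.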

How the data were processed

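ATAC-seq was read from lists of ACRs. As described for the study, reads were trimmed by the authors (with fastp, or Trimmomatic in the labels), aligned with Bowtie2, cleared of duplicates with Picard and used for peak calling with MACS2. Peaks were cut into bins of 150 bp that overlapped by 50 bp, bins dense in Tn5 insertions were kept and merged, and blacklisted or organelle-like peaks were dropped. The genome build, the density minimum and any pooling of replicates are not given in the sources used here. The deposited values are start and end coordinates (other units were not given), so the depth is unknown.

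The DAP5 and DAP9 lists were merged, and shares were given with Wilson 95% intervals in Python 3.11.15 (pandas 2.3.3, numpy 2.4.6 and scipy 1.17.1), and figures were drawn with matplotlib 3.10.9. Chromosome length was the largest end coordinate in any of the 4 lists. Printed coordinates count from 1. No test was made, because each stage had 1 list. The merging, overlap and distance steps were checked against planted classes and direct comparison on simulated intervals. Named were the widest locus of each class, the largest changes in width, the longest runs and the extreme windows and chromosomes. Further loci and runs were named after their values were seen. Members, measures and alternatives were chosen with earlier results of these data known. Genes, motifs and sequences were not analysed here, since the gene table at hand belongs to the assembly IWGSC CS RefSeq v2.1 and the build of the lists was not stated.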

Additional observations from a re-analysis of the deposited data

How the results depend on the processing

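No paired analysis was possible because each stage had 1 list, with none for single replicates, and leaving out a replicate could not be done either. The planned counts of genes near loci were not run, for want of an annotation of the same build. Leaving out 2D or group 2 was chosen after seeing the data. Narrow ACRs decide most of what is lost or gained, and with no read numbers an ACR just under the authors' minimum cannot be told from closed chromatin. The cause of each shift below was not tested, apart from what a setting does by construction. Reciprocal overlap and shortened ACRs split kept loci, wider merging joins loci, and on-step ACRs remove 18.2% of the DAP5 list but 1.92% of the DAP9 list. Ties in width among the 50000 widest ACRs were broken by chromosome order, so no value by chromosome is given for them.

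Lost, gained and kept shares were 30.8, 25.8 and 43.4% with reciprocal overlap of 50%. They were 27.7, 22.6 and 49.7% for 350 bp around the ACR midpoints, and 21.5, 18.1 and 60.4% when ACRs within 500 bp were merged. They were 21.002, 30.2 and 48.8% with on-step widths, 23.1, 23.4 and 53.6% with the 50000 widest ACRs, and 14.3, 11.2 and 74.6% when counted by covered bases. Without 2D, the lost share was 23.8% and the gained share 18.5%, and for ACRs of at least 300 bp 23.2% and 19.2%. Gain exceeded loss with on-step widths, and loss exceeded gain in the other settings that kept unequal lists. Lists of 50000 ACRs each make lost and gained loci about equal by construction and say nothing on their order. Lost loci outnumbered gained loci on 1 of 21 chromosomes with on-step widths and on 19 or 20 with a minimum of 300 bp, reciprocal overlap, merging or midpoints.

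Median widths of lost, gained and kept loci were 497, 500 and 800 bp with reciprocal overlap and 800, 800 and 1250 bp with the 50000 widest ACRs. The kept median was 950 bp with merging within 500 bp and 843 bp with on-step widths, which gave a gained median of 500 bp.

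Shares at the chromosome ends for lost, gained and kept loci were 46.9, 34.6 and 38.1% in the outer 10% at either end and 78.0, 75.9 and 75.7% in the outer 30%. In the outer 20%, lost loci reached 64.2% with reciprocal overlap and 66.4% with the 50000 widest ACRs. Gained loci reached 59.5% with reciprocal overlap, 59.9% with 350 bp around each midpoint and 59.2% with on-step widths. Kept loci reached 59.7% with merging and 61.4% with the 50000 widest ACRs. The lost share at the ends was above the gained share in each of these settings.

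All 48 recalculations of subgenome differences stayed within 1 SD over the groups, although small differences changed sign. Kept loci that widened by at least 1.5 times made up 14.6% with on-step widths and 13.1% without 2D, and those that narrowed 10.3% with on-step widths. Median distances to the other list were 7364 bp for lost and 9789 bp for gained loci when ACRs within 500 bp were merged. For 350 bp around the ACR midpoints, presence at DAP15 was 24.1% for lost, 42.3% for gained and 65.5% for kept loci, and at DAP20 25.8, 37.4 and 60.2%. Without 4B, 72.4% of kept loci were present at DAP15. Of 145 recalculations in all, 89 stayed inside the interval or SD of the reported value. This count mixes unlike measures, since 48 of the 89 were subgenome differences set against the wide SD over groups. Of the 24 recalculations of the class shares, set against narrow intervals, 2 stayed and 22 moved.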

Other observations

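Some kept loci held unequal numbers of ACRs. A single DAP5 ACR met 2 or more DAP9 ACRs in 1563 kept loci (2.08%), and 2 or more DAP5 ACRs met a single DAP9 ACR in 2754 (3.67%). The widest kept locus covered 11797 bp on 1D (408067693 to 408079489). It held a single DAP5 ACR of 11750 bp and 5 DAP9 ACRs of 4600 bp in sum.

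Width change at kept loci differed with the seed lists that held them, which the sorting had not used. Among kept loci with 1 ACR in each endosperm list, 14.01% of those also found at DAP15 and DAP20 were at least 1.5 times wider at DAP9 (13.7 to 14.4%) and 7.62% narrower (7.36 to 7.88%). Among those found in neither later list, 10.8% were wider (10.3 to 11.3%) and 16.8% narrower (16.2 to 17.4%). The mean log2 ratios were 0.09 and -0.09. Presence in a single later list did not go with widening in both cases. Of loci found at DAP15 but not DAP20, 15.8% were wider and 11.4% narrower, and of those found at DAP20 but not DAP15, 12.2% were wider and 15.2% narrower.

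Few loci sat on the edge of the overlap rule. Only 152 lost loci came within 50 bp of a DAP9 ACR, and 82 kept loci overlapped by at most 50 bp, against a median overlap of 500 bp.

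The wide lost loci that return in both later lists, such as the 7400 bp locus on 1B, are among the regions to look at first in read data, since their absence rests on the DAP9 list alone. So is chromosome 2D, where widths and gain both stood apart.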
